A study of Mus musculus with 6 samples.

Results

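The genes described here encode proteins of the pre-mRNA splicing machinery in mouse kidney after ischemia and reperfusion. They were taken from the table of all libraries by gene symbol in 5 families, and 55 of the 13026 genes in the table matched. There were 12 genes of small nuclear ribonucleoprotein (snRNP) proteins, 10 of SR proteins, 20 of heterogeneous nuclear ribonucleoproteins (hnRNPs), 9 of SF3A and SF3B subunits and 4 of the U2AF factor. They carry 54 symbols, because U2af1l4 stands in 2 rows. Whole-kidney RNA came from adult male mice on the C57BL/6J background, as 3 wild type (LIGHT+/+) and 3 LIGHT knockout (LIGHT-/-) samples. LIGHT is the cytokine encoded by Tnfsf14. Both genotypes had the same operation, with 32 min of ischemia of both kidneys and 24 h of reperfusion. Unoperated kidneys were not analysed here, and neither was Tnfsf14 itself, which leaves the genotypes as the labels give them. The labels number the samples of a genotype 1 to 3 but name no separate mouse for each, and the p-values therefore reflect only how these samples vary, which may be technical.

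Introns are removed from pre-mRNA by the spliceosome, which is assembled from snRNPs, each made of a small nuclear RNA and proteins. A ring of Sm proteins surrounds the RNA of most snRNPs. U1 recognises the start of an intron, while U2AF and then the U2 snRNP with SF3A and SF3B recognise its end and branch point. SR proteins bind exons and mostly promote the use of nearby splice sites. The hnRNPs coat pre-mRNA, often oppose SR proteins, and also act in RNA export, stability and translation.

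The values are FPKM, which are scaled for transcript length and library total, so levels can be compared between genes. Read counts cannot be taken from them and the depth is unknown. The libraries summed to between 299667 and 318493 FPKM over the table. Knockout library 3 differed from the others: its correlation with them over 12836 genes lay between 0.934 and 0.956, against 0.976 to 0.989 among the other 5. The kidney label was met by markers of proximal tubule (8 of 8 above the filter on low values), loop and distal nephron (5 of 5), podocyte (4 of 4) and endothelium (5 of 5). Of 6 lymphocyte markers, 0 were above it.

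No member passed the test between genotypes, and the members leaned to lower values in the knockout. Of the 55 members, 0 passed a limma adjusted p under 0.05 in either direction, where 0.117% of all 12836 genes tested did (0.0234% higher and 0.0935% lower), and the adjusted p-values of members lay between 0.592 and 0.964. At an unadjusted limma p under 0.05 there were 3 lower members (5.45%), against 3.74% of all genes, and 0 higher members, against 4.34%, or 8.08% of all genes in either direction. The 3 became 0 when any 1 wild type library was left out, 1 without knockout library 3 and 7 without knockout library 1. The log2 fold change of knockout minus wild type was below 0 in 39 of 55 members (70.9%, against 52.1% of all genes tested), with a median of -0.11 against -0.01 over all genes. Every knockout value lay below every wild type value in 13 members (23.6%), against 8.8% of all genes, and the reverse held in 0 members, against 7.76%. All fold changes were taken on log2(FPKM + 1), where those of weakly expressed genes come out too small.

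Much of the size of this lean, though little of the count of members below 0, lay in knockout library 3. It held the lowest of the 6 values in 31 of 55 members (56.4%), against 30.3% of all genes, and the highest in 5, against 29.8%. Without it the median over members was -0.05, against -0.012 over all genes. Below 0 were 37 of 55 members, a count not taken over all genes in that fit. Limma's library quality weights gave knockout library 3 the weight 0.246 and knockout library 2 the largest weight, 4.49. With them the median over members was 0.011. The median over all genes was not taken in that fit, so whether members leaned relative to all genes there is not known. The medians of SR and SF3 genes were 0.073 and 0.071, and those of snRNP, hnRNP and U2AF genes -0.054, -0.006 and -0.092. In knockout library 3 the 9 listed tubular injury markers summed to 1784 FPKM. The sums were 6004 to 6679 in wild type and 5065 and 6224 in the other knockout libraries. Spp1 held most of each sum (1321.8 FPKM in knockout library 3), and 7 of the 9 markers were lowest in that library. The 8 proximal tubule markers summed to 1540.2 FPKM there, against 612.8 to 747.8 in wild type and 926.4 and 965.8 in the other knockout libraries. All 8 lay higher in knockout without overlap, where 7.76% of all genes did. Their median log2 fold change was 0.567, or 0.406 without knockout library 3. The 5 loop and distal nephron markers summed to 1213.4 FPKM there, against 598.0 to 945.9 in wild type and 496.3 and 653.7 in the other knockout libraries. The 4 podocyte markers summed to 91.0 to 106.8 FPKM in wild type and 80.7 to 81.1 in knockout, without overlap. Podxl held most of each sum, and Nphs1 was highest in knockout library 3 (3.53 FPKM). Of the 4 genes, 2 lay lower without overlap, where 8.8% of all genes did. The 5 endothelial markers summed to 54.9 to 77.7 FPKM in wild type and 56.5 to 80.9 in knockout. The 10 myeloid markers, none of them at 0, summed to 148.5 to 260.3 FPKM in wild type and 105.5 to 131.0 in knockout. Of these genes 4 lay lower without overlap, while Csf1r and Adgre1 were highest in knockout library 3 (9.42 and 4.40 FPKM). The 6 proliferation markers above the filter summed to 23.8 to 47.2 and 23.7 to 28.7 FPKM. Of 6 adrenal, muscle and fat markers, 3 were in the comparison, and they summed to 17.1 FPKM in knockout library 3, of which 13.1 were Adipoq, a fat cell gene listed at 0 in wild type, and to between 0.944 and 1.70 in the others. The part of these cell types in the members' values was not tested. In whole-kidney RNA, fewer cells of a type and less RNA per cell cannot be told apart.

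**Figure D1:**
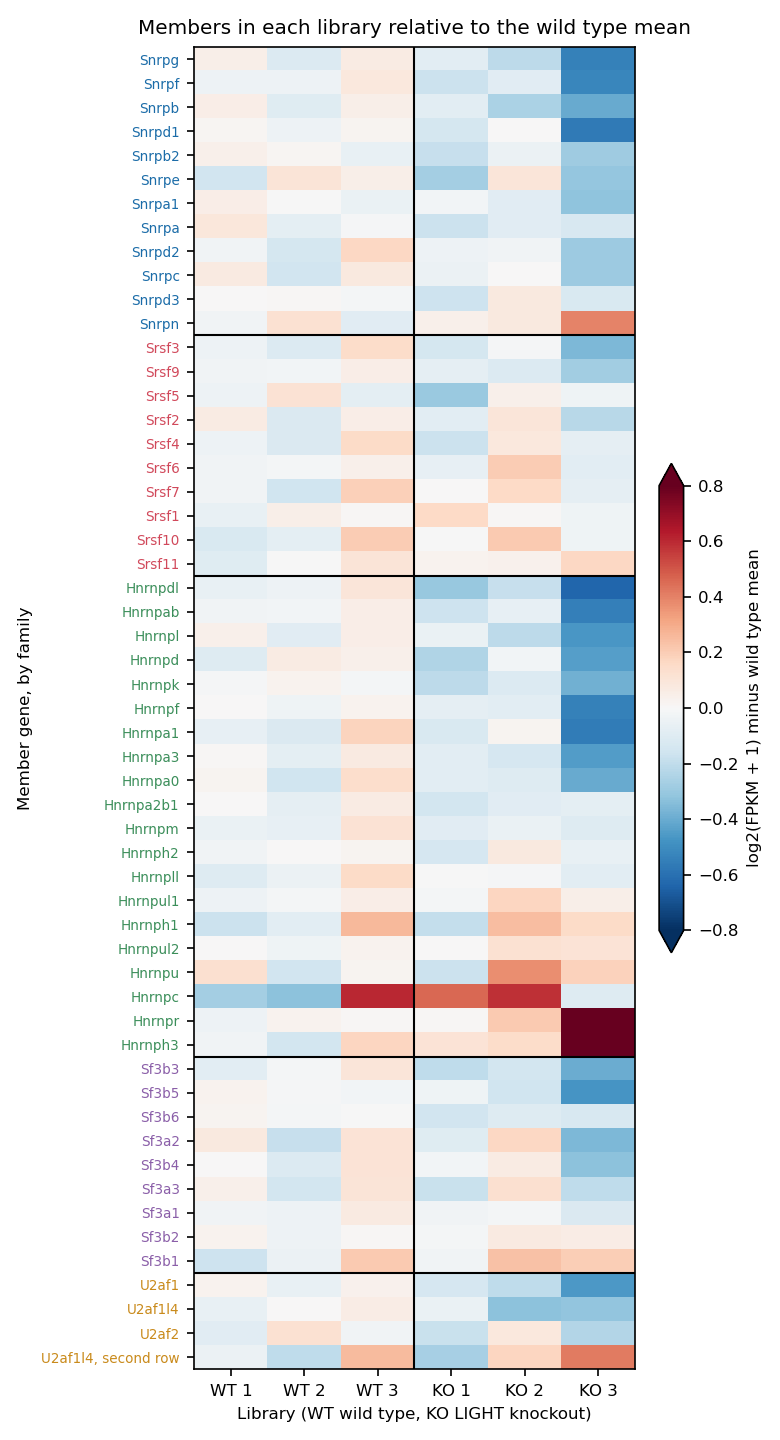
Each row is 1 of the 55 members and each column 1 library (WT wild type, KO LIGHT knockout); colour gives log2(FPKM + 1) minus the wild type mean, and row label colours mark the families. The column of knockout library 3 is blue in most rows, with Hnrnph3 and Hnrnpr dark red, and Hnrnpc differs between libraries of the same genotype.

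The promoters of 47 of the 54 symbols were found in RefSeq (GRCm38.p6). In the 300 bases around the transcript start they held a median of 26 CpG dinucleotides, against 22 over 9773 tested genes with a promoter (for each gene, the listed start with the most). CCAAT, the letters that the factor NF-Y recognises, was searched on both strands, and 24 of 47 members held it (51.1%), against 42.36% of the tested genes. By family it was held by 13 of 18 hnRNP genes (72.2%), 4 of 10 snRNP genes (40.0%), 4 of 10 SR genes (40.0%), 2 of 7 SF3 genes (28.6%) and 1 of 2 U2AF genes. CCGGAAGT, an ETS motif, was held by 9 of 47 members (19.1%) and 8.74% of the tested genes. TATAAA was held by 7 of 47 (14.9%) and 9.0%. The other motifs searched were close to the tested genes: the GC box GGGCGG was held by 33 of 47 (70.2%) and 67.98%, the E-box CACGTG by 6 of 47 (12.8%) and 11.65%, and the CRE TGACGTCA by 2 of 47 (4.3%) and 3.44%. Where a gene has several listed starts, a match in any of them was counted, and a match is not evidence of binding. The 100 bases upstream of the most upstream listed start are shown 5′ to 3′ for 4 members with CCAAT in this window: U2af1 and Hnrnpk, which had an unadjusted p under 0.05, Snrpf of the Sm ring, and Hnrnpc, whose values crossed the genotypes. Hnrnpdl, which also had an unadjusted limma p under 0.05, held no CCAAT in its 300 bases. In the bases shown, capitals mark CCAAT or its reverse complement, which overlap in U2af1.
U2af1 (chr17:31658765-31658864, minus strand): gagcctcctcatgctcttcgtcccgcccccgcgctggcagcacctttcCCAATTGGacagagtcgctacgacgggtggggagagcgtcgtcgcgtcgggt
Hnrnpk (chr13:58402118-58402217, minus strand): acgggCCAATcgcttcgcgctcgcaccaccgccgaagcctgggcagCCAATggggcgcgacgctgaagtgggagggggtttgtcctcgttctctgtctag
Snrpf (chr10:93589659-93589758, minus strand): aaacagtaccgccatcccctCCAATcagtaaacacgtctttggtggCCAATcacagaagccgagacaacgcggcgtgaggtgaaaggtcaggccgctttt
Hnrnpc (chr14:52104022-52104121, minus strand): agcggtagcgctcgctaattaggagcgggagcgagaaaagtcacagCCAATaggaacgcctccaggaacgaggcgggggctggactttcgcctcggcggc

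Among the snRNP proteins, 11 of 12 had a log2 fold change below 0, with a median of -0.15, and none passed the test. Without knockout library 3 the same count was 11 of 12 and the median -0.08. The 7 proteins of the Sm ring were all below 0, between -0.28 and -0.07. Their RNA levels differed, although the ring holds the proteins in equal numbers. Snrpd1 was the highest at 71.4 ± 1.70 FPKM in wild type (SD, n = 3), and Snrpb and Snrpf stood at 51.6 ± 2.91 and 50.8 ± 2.64, closer to each other than their spread. Snrpe followed at 38.5 ± 3.57, then Snrpg at 31 ± 2.12, and Snrpd3 and Snrpd2 were alike at 22.4 ± 0.279 and 22.3 ± 2.52.

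Snrpd1 (chromosome 18) stood at 72.2, 69.5 and 72.6 FPKM in wild type libraries 1 to 3 and at 64.7, 71.6 and 48.0 in the knockout libraries. Knockout library 3 was the lowest and knockout library 2 lay within the wild type range, so the groups overlapped. Its log2 fold change was -0.23 ± 0.15 (SE, limma adjusted p = 0.654) and -0.07 without that library. Snrpg, the ring protein with the most negative fold change, stood at 32.0, 28.6 and 32.5 FPKM in wild type and 29.2, 26.7 and 21 in knockout. Its log2 fold change was -0.28 ± 0.135 (limma adjusted p = 0.598), and knockout library 1 lay within the wild type range. Snrpf, whose promoter is printed above, was the ring protein with groups that did not overlap, at 49.2, 49.3 and 53.8 FPKM in wild type and 45.0, 47.6 and 35.0 in knockout. Its log2 fold change was -0.26 ± 0.13 (limma adjusted p = 0.598). Its level is uncertain, because 23.1% of its 31-base words occur in other genes and its exons overlap Ccdc38 on the opposite strand.

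The proteins that belong to 1 snRNP, U1 or U2, had log2 fold changes between -0.17 and -0.11. Snrpa, the U1 protein that binds a loop of the U1 RNA, stood at 18.9, 16.7 and 17.6 FPKM in wild type and 15.6, 16.6 and 16.1 in knockout, without overlap (log2 fold change -0.13 ± 0.09, limma adjusted p = 0.654). Snrpc, the U1 protein that supports pairing with the start of the intron, lies on chromosome 17 and stood at 4.61, 3.79 and 4.64 FPKM and 4.17, 4.35 and 3.36, so its groups overlapped. The U2 proteins Snrpa1 and Snrpb2 had wild type means of 8.14 ± 0.346 and 12.6 ± 0.484 FPKM and knockout means of 7.30 ± 0.878 and 11.1 ± 1.02. Snrpn, an imprinted relative of Snrpb best known from neurons, was the snRNP gene above 0. It stood at 4.85, 5.49 and 4.59 FPKM in wild type and 5.13, 5.29 and 6.85 in knockout, and its value in knockout library 3 was the highest of the 6. Its log2 fold change was 0.17 ± 0.13 (limma adjusted p = 0.69) and 0.06 without that library. Snrpn shares exons with Snurf and Gm38393 on the same strand, so reads cannot be assigned to 1 of them with certainty.

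The SR proteins were split evenly, with 5 genes above and 5 below 0 and a median of -0.02. Their log2 fold changes lay between -0.17 and 0.07, a narrower span than in any other family. Srsf2, which acts in constitutive and regulated splicing, was the highest at 69.4, 61.2 and 68.9 FPKM in wild type and 62.6, 71.2 and 56.8 in knockout. These groups overlapped (log2 fold change -0.07 ± 0.11, limma adjusted p = 0.849), with a 95% interval from -0.34 to 0.20. Srsf3, the smallest SR protein, stood at 38.2, 36.5 and 43.8 FPKM and 35.6, 39.2 and 30.5 (log2 fold change -0.17 ± 0.12, limma adjusted p = 0.686). Srsf9 was the SR gene without overlap, at 23.3, 23.4 and 24.8 FPKM in wild type and 22.6, 22.0 and 19.5 in knockout (limma adjusted p = 0.636).

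Srsf1, the founding member of the family, varied little, at 13.8, 14.9 and 14.5 FPKM in wild type and 16.2, 14.5 and 14.0 in knockout. Srsf11 had the largest positive fold change of the family, at 12.7, 13.6 and 14.7 FPKM and 13.9, 14.0 and 15.4 (0.07 ± 0.09, limma adjusted p = 0.804). Srsf7, which also takes part in RNA export, stood at 30.1, 27.4 and 35.2 FPKM and 30.8, 34.4 and 29.2, and wild type library 3 and knockout library 2 were its highest values. Both of these libraries were also the highest for Srsf4, Srsf6, Srsf10 and the summed level of the family. Srsf5, at 39.1 ± 2.92 and 36.6 ± 4.56 FPKM, had its lowest value in knockout library 1.

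**Figure D2:**
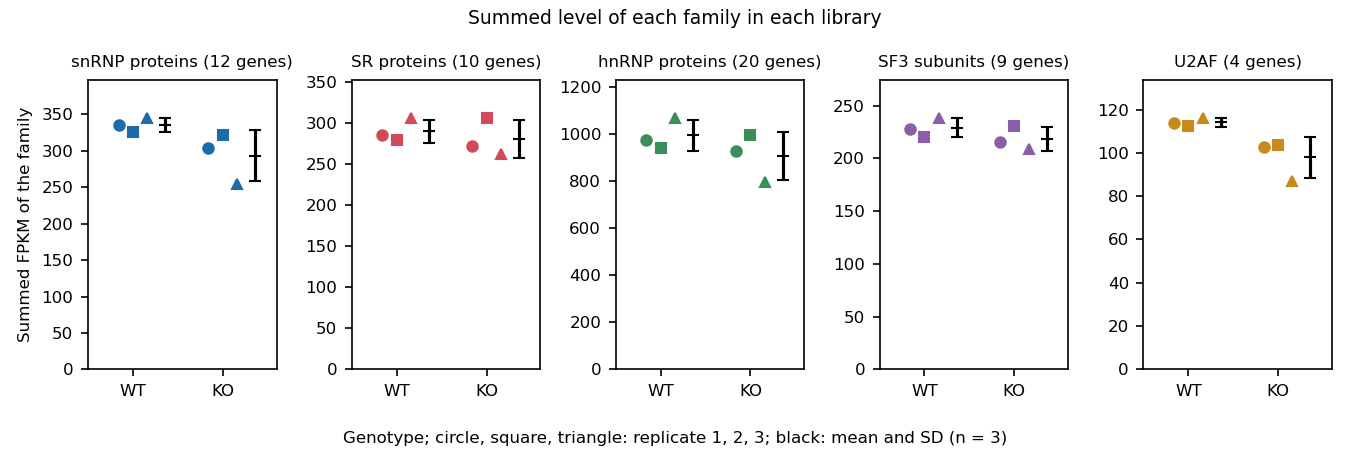
Each panel gives the FPKM summed over the genes of 1 family in each library, with replicate 1, 2 and 3 as circle, square and triangle and the mean and SD (n = 3) in black; axes start at 0. The sums are not rescaled to equal library totals. On this scale the snRNP and U2AF sums do not overlap between genotypes, and the SR, hnRNP and SF3 sums do. Knockout library 3 is the lowest point of every panel.

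The snRNP genes summed to 335.3, 326.5 and 345.5 FPKM in wild type and 304.3, 321.4 and 254.7 in knockout. The U2AF genes, carried by U2af1, summed to 113.6, 112.4 and 116.2 FPKM and to 102.8, 103.7 and 87.1. In both families each knockout sum was below each wild type sum. The sums were not rescaled to equal library totals. Those totals were 318493 and 312845 FPKM in wild type libraries 1 and 2, and 300240 in knockout library 2. Relative to the values, the snRNP gap between wild type library 2 and knockout library 2 was smaller than the gap between their totals. The snRNP sums thus lie apart only on this scale. The SR genes summed to 279.2 to 305.5 FPKM in wild type and 262.5 to 306.2 in knockout, and the SF3 genes to 220.4 to 238.4 and 209.1 to 231.0. The hnRNP genes, the largest family in level, summed to 942.3 to 1069.0 FPKM and 796.1 to 996.6.

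The hnRNPs held the widest range of levels and of fold changes. Their log2 fold changes lay between -0.37 and 0.44, 13 of 20 were below 0 and the median was -0.09. Hnrnpab, which binds RNA and single-stranded DNA, was the highest member of all at 160.9, 161.0 and 169.7 FPKM in wild type and 146.2, 156.3 and 111.7 in knockout. The groups did not overlap, and the log2 fold change was -0.26 ± 0.14 (limma adjusted p = 0.613), or -0.115 without knockout library 3. Hnrnpa1, the classic antagonist of Srsf1 in splice site choice, stood at 153.0, 147.8 and 181.0 FPKM and 147.2, 162.6 and 108.0, and its groups overlapped. Hnrnpa1 shares 29.3% of its 31-base words with transcripts of other genes, 24 pseudogenes among them, so its level is uncertain.

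Hnrnpdl, a paralog of Hnrnpd, had the lowest fold change and the smallest unadjusted p of all members. It stood at 29.5, 29.8 and 33.0 FPKM in wild type and 24.7, 26.9 and 19.4 in knockout. All 3 knockout values were below the lowest wild type value. Its log2 fold change was -0.37 ± 0.13, with a 95% interval from -0.69 to -0.05, and it did not pass (unadjusted p = 0.0281, limma adjusted p = 0.592). Without knockout library 3 it was -0.24. Hnrnpd itself, known as AUF1 and a factor of mRNA decay, averaged 9.95 ± 0.695 and 8.32 ± 1.34 FPKM, and its groups overlapped.

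Hnrnpk, which binds poly(C) stretches, stood at 57.1, 58.7 and 56.8 FPKM in wild type and 49.7, 53.2 and 43.8 in knockout. The wild type values were close together and all above the knockout values, and the log2 fold change was -0.235 ± 0.098 (unadjusted p = 0.0491, limma adjusted p = 0.592). Its exons overlap Rmi1 on the opposite strand, and 17.1% of its 31-base words occur in other genes. Hnrnpf, Hnrnpa3 and Hnrnpa2b1 were the other hnRNP genes without overlap. Hnrnpf, which binds G-rich stretches, stood at 104.7, 102.0 and 106.3 FPKM and 99.1, 98.5 and 71.5, with a log2 fold change of -0.23 ± 0.14 (limma adjusted p = 0.638), or -0.08 without knockout library 3. Hnrnpa3, a relative of Hnrnpa1, stood at 87.4, 82.2 and 91.3 FPKM and 82.0, 79.2 and 63.6, and knockout library 1 came close to the lowest wild type value. Of the 31-base words of Hnrnpf and Hnrnpa3, 38.5% and 28.1% occur in other genes, so their levels are uncertain. Hnrnpa2b1, which binds RNA for splicing and transport, stood at 68.7, 65.3 and 71.9 FPKM and 61.8, 64.4 and 64.8, and here knockout library 1 was the lowest and knockout library 3 the highest of the knockout values (log2 fold change -0.11 ± 0.08, limma adjusted p = 0.696).

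Hnrnpc, Hnrnph3 and Hnrnpr varied more between libraries than other members, and they were chosen for description after their values were seen, apart from Hnrnph3, which had the highest fold change of the family. Hnrnpc, the core protein of the particles that pack nascent RNA, stood at 32.9, 31.7 and 61.2 FPKM in wild type and 55.5, 60.4 and 37.2 in knockout. The values lay in separate low and high ranges that crossed the genotypes: wild type libraries 1 and 2 and knockout library 3 were low, and wild type library 3 and knockout libraries 1 and 2 were high. The mean of each genotype thus describes neither range, and the log2 fold change was 0.31 ± 0.29 (limma adjusted p = 0.734). GENCODE M21 lists 13 transcripts for Hnrnpc and 13.6% of its 31-base words occur in other genes, and the part of either in these values was not tested.

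Hnrnph3 stood at 7.77, 7.07 and 9.05 FPKM in wild type and 8.64, 8.88 and 17.6 in knockout. Hnrnpr, a relative of the RNA-binding protein Syncrip, stood at 2.64, 2.81 and 2.76 FPKM and 2.76, 3.32 and 5.80. Both were high in knockout library 3 alone. Their log2 fold changes of 0.44 ± 0.26 and 0.36 ± 0.22 (limma adjusted p = 0.634 and 0.635) were 0.13 and 0.11 without it. The coefficient of variation over the 6 libraries was 39.5% for Hnrnph3, 36.6% for Hnrnpr and 30.1% for Hnrnpc, against a median of 11.7% over members and 15.2% over all genes tested.

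**Figure D3:**
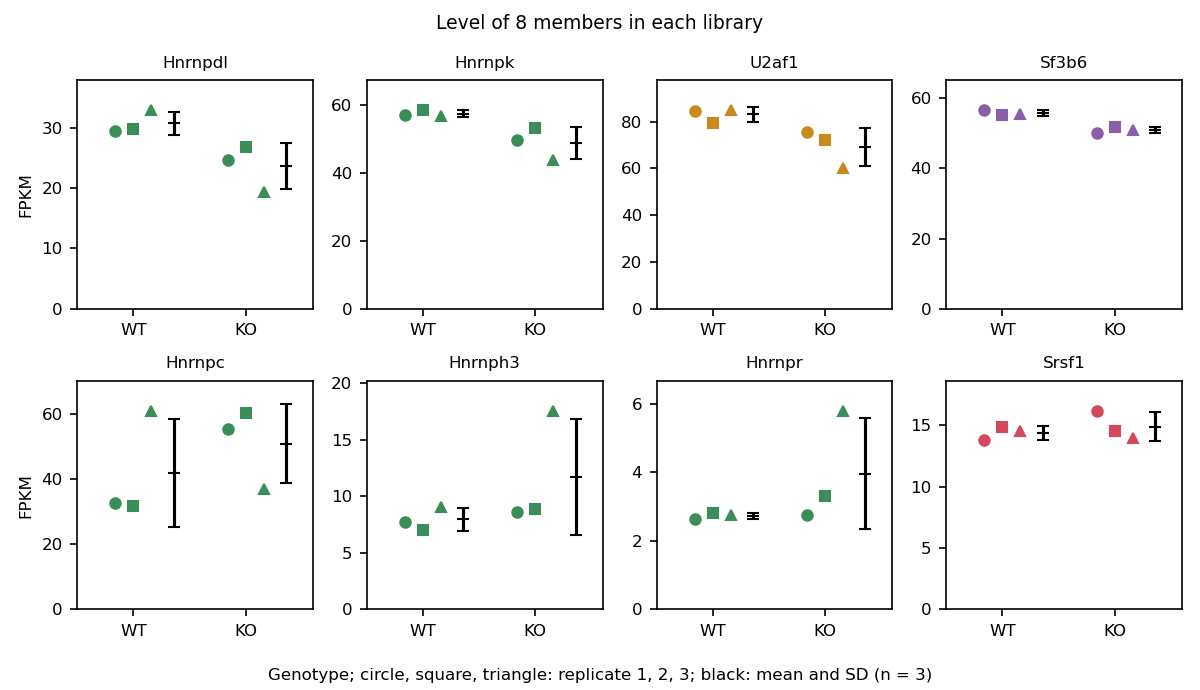
FPKM of 8 members in each library, with replicate 1, 2 and 3 as circle, square and triangle and the mean and SD (n = 3) in black; axes start at 0. Hnrnpdl, Hnrnpk, U2af1 and Sf3b6 show no overlap between genotypes, Hnrnpc is split within both genotypes, Hnrnph3 and Hnrnpr are high in knockout library 3, and Srsf1 differs little.

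The SF3 complexes hold U2 snRNP at the branch point, and 7 of their 9 genes were below 0, with a median of -0.10, or -0.02 and 5 of 9 without knockout library 3. Sf3b2 was the highest of them and the steadiest of all members, at 59.1, 56.1 and 58.3 FPKM in wild type and 57.2, 60.7 and 60.3 in knockout. Its coefficient of variation was 3.05%, and its log2 fold change was 0.04, with a 95% interval from -0.15 to 0.23. Sf3b1, the large scaffold that holds the branch point, had the largest positive fold change of the family, at 17.4, 19.0 and 22.9 FPKM and 19.2, 23.3 and 22.7 (0.135 ± 0.13, limma adjusted p = 0.741). Its groups overlapped.

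Sf3b3, Sf3b5 and Sf3b6 were the subunits without overlap. Sf3b3, a scaffold of the complex, stood at 23.7, 25.0 and 27.1 FPKM in wild type and 21.8, 22.7 and 18.9 in knockout (log2 fold change -0.25 ± 0.10, limma adjusted p = 0.592). Sf3b5, a small subunit, stood at 11.0, 10.7 and 10.6 FPKM and 10.5, 9.54 and 7.49, with knockout library 1 next to the wild type values. Sf3b6, which lies next to the branch point, stood at 56.7, 55.2 and 55.6 FPKM and 50.1, 51.8 and 50.9. Its spread was under 1 FPKM in either genotype (SD 0.781 and 0.839) and knockout library 3 was not the lowest. The log2 fold change of Sf3b6 was -0.13 ± 0.08 and stayed at -0.13 without knockout library 3, but it did not pass (limma adjusted p = 0.627). The 3 SF3A genes had fold changes between -0.10 and -0.06, and in each of them knockout library 3 was the lowest.

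U2af1, the small U2AF subunit that reads the last bases of the intron, stood at 84.7, 79.6 and 85.1 FPKM in wild type and 75.6, 72.1 and 60.1 in knockout. The groups did not overlap. Its log2 fold change was -0.265 ± 0.11 (unadjusted p = 0.0484, limma adjusted p = 0.592) and -0.17 without knockout library 3. The large subunit U2af2, its partner, stood at 22.7, 26.5 and 23.8 FPKM and 21.3, 25.8 and 20.5, with overlap (log2 fold change -0.11 ± 0.12, limma adjusted p = 0.766). Of the words of U2af1 and U2af2, 25.4% and 21.4% occur in other genes. The row of U2af1l4 proper had means of 4.54 ± 0.230 and 3.74 ± 0.525 FPKM, with overlap. The second row (ENSMUSG00000109378.1), which GENCODE M21 names Gm49396 and which shares exons with U2af1l4 and Igflr1, averaged 2.05 ± 0.492 and 2.32 ± 0.759. Its values were 1.93, 1.63 and 2.60 FPKM and 1.52, 2.41 and 3.03, and its fold change was 0.105 ± 0.205, or -0.05 without knockout library 3.

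**Figure D4:**
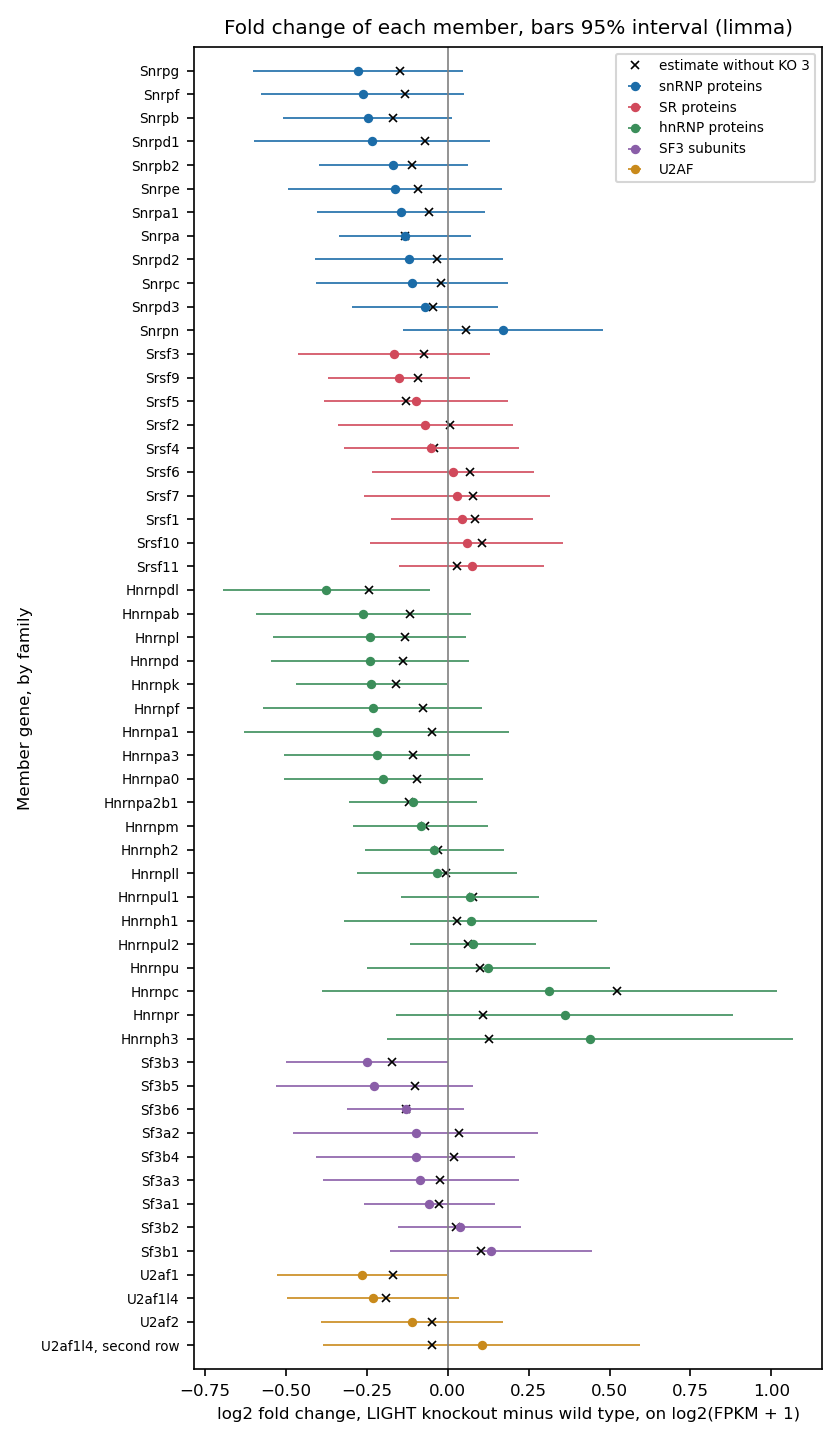
Points give the log2 fold change of each member (knockout minus wild type, log2(FPKM + 1) scale) with its 95% interval from limma, coloured by family, and crosses give the estimate without knockout library 3. For most members the cross lies nearer to 0 than the point, and the SR genes lie close to 0.

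Tnfsf14 lies on chromosome 17, and 6 members lie on the same chromosome, between 22.8 and 29.3 Mb from it: Hnrnpll, Srsf7, Hnrnpm, U2af1, Srsf3 and Snrpc. Apart from U2af1 their fold changes lay between -0.17 and 0.03. Hnrnpm, which binds G- and U-rich stretches, stood at 29.2, 28.9 and 32.9 FPKM and 28.4, 29.1 and 28.1. Hnrnpll, known from the splicing of the Ptprc gene in lymphocytes, stood at 4.51, 4.72 and 5.58 FPKM and 4.91, 4.88 and 4.59. Both overlapped between genotypes.

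On 7 lists of other genes of the splicing machinery, 0 tested genes passed the adjusted threshold. The Lsm proteins, relatives of the Sm proteins that mostly bind U6 RNA or act in mRNA decay, were all below 0 (10 of 10). Their median was -0.20, or -0.15 without knockout library 3. Lsm7 stood at 55.9, 49.9 and 60.5 FPKM in wild type and 47.8, 45.6 and 30.9 in knockout (log2 fold change -0.43 ± 0.18, limma adjusted p = 0.592). In the Prp19 complex and the factors of the catalytic steps, 13 of 26 were below 0, with a median of -0.01. Cwc27, a member of the cyclophilin family, stood at 7.71, 8.04 and 7.77 FPKM and 6.30, 7.30 and 5.74, without overlap (-0.25 ± 0.105, limma adjusted p = 0.592). Of proteins of exon junctions and SR-related proteins, 9 of 15 were below 0, with a median of -0.08, and it was 0.02 without knockout library 3. Of the kinases that phosphorylate SR proteins, 5 of 8 tested were above 0, with a median of 0.06.

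Of 35 other core particle proteins, 21 were below 0, with a median of -0.05, and both directions held genes without overlap. Luc7l, a relative of a yeast U1 protein, stood at 4.64, 6.43 and 4.08 FPKM in wild type and 7.55, 8.38 and 8.03 in knockout (log2 fold change 0.59 ± 0.15, unadjusted p = 0.00686, limma adjusted p = 0.592). Txnl4a, a U5 protein, stood at 7.78, 6.97 and 11.3 FPKM and 12.7, 12.9 and 12.5 (0.53 ± 0.17). Snrnp40, also of U5, stood at 5.92, 6.46 and 7.25 FPKM and 5.24, 5.29 and 4.66 (-0.31 ± 0.11). The differences of Luc7l and Txnl4a were 0.585 and 0.54 without knockout library 3.

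Among 37 tested splicing regulators outside the families, 25 were below 0, with a median of -0.07. Khsrp, which binds AU-rich elements, stood at 24.1, 22.3 and 27.3 FPKM in wild type and 19.5, 19.8 and 16.8 in knockout (-0.375 ± 0.11, limma adjusted p = 0.592). Positions of Khsrp and the other genes on these lists were not looked up, so their distance from Tnfsf14 is not given. Rbm10, a repressor of exon inclusion, stood at 10.7, 9.69 and 11.3 FPKM and 13.0, 11.8 and 12.8 (0.23 ± 0.09, limma adjusted p = 0.592). Of 16 genes for snRNP assembly and import, 10 were below 0, with a median of -0.05. Gemin4, of the complex that loads the Sm ring, stood at 4.93, 4.99 and 5.12 FPKM and 3.70, 4.27 and 2.75 (-0.41 ± 0.14, limma adjusted p = 0.592). The genes named from the 7 lists were picked for an unadjusted limma p under 0.05, and none passed after adjustment. Over all genes tested, 8.08% reached that p. In the core particle list 2 higher and 1 lower of 35 genes reached it. In the Lsm, Prp19 and assembly lists 1 of 10, 1 of 26 and 1 of 16 did. Among other regulators 1 higher and 1 lower of 37 did, and in the exon junction and kinase lists 0 of 15 and 0 of 8.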

How the data were processed

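The authors deposited FPKM per gene for 6 kidney libraries. Per the labels' protocols, the libraries came from a KAPA kit that keeps strand. The submitters' processing notes name FastQC, HISAT2, StringTie and the mm10 build. The annotation, and whether counting used strand, are not given in the sources used here. Each library's own file was identical to the table of all libraries.

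The filter kept 12836 genes whose mean reached 0.5 FPKM, all 55 members among them. On log2(FPKM + 1), the genotypes were compared with limma 3.58.1 (R 4.3.3), two-sided and with a mean-variance trend. Benjamini-Hochberg adjustment ran over all genes kept, with 0.05 as the threshold. With 3 samples a side, the smallest p of an exact permutation test is 0.1. In the text, ± gives the SD (n = 3) for mean FPKM and the SE for log2 fold changes. The fit was also run on simulated data, with changes larger than those of the members and no deviating library. That run cannot show how well changes as small as those of the members would be found.

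Members were matched by symbol. Members and gene lists were chosen with earlier results of these data known. Values in every library are given for members with an unadjusted p under 0.05, for the highest, the most positive and the most negative member of each family, and for members on chromosome 17. Hnrnpc, Hnrnpr, other members without overlap between genotypes, Srsf1, Hnrnpa1 and U2af2 were added after their values were seen. Positions and transcripts are from GENCODE M21 (GRCm38, the assembly of mm10), where all 55 identifiers matched. There, other genes hold 10% or more of the 31-base words of 20 members, and 21 members have an exon that overlaps a gene on the opposite strand, so their values are uncertain. In GENCODE M21 1 further protein-coding gene, Srsf12, fits the symbols and was not analysed here. Promoters are from RefSeq.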

Additional observations from a re-analysis of the deposited data

How the results depend on the processing

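No member passed the adjusted threshold in any of the 18 alternatives, where the smallest adjusted p of a member was 0.139. Over all genes the 15 calls became 9 with a mean of at least 5 FPKM, 52 with library quality weights, 0 with the replicate number as a block and 0 to 11 when each library was left out (wild type: 0, 6 and 0 for libraries 1, 2 and 3; knockout: 7, 0 and 11). The 3 lower members at an unadjusted p under 0.05 became 1 after rescaling each library to an equal sum, 5 with quantile normalization, 1 without the trend, 0 with the replicate block and 0 to 7 with a library left out, and the 0 higher members became 3 with quality weights and 0 to 1 with a library left out. The weights (0.246 for knockout library 3, 4.49 for knockout library 2) moved the median to 0.073 for SR proteins, 0.071 for SF3 subunits, 0.011 for all members, 0.032 for other core particle proteins, 0.059 for the Prp19 list, 0.051 for the exon junction list, -0.003 for other regulators and 0.081 for snRNP assembly. With the weights the medians of snRNP, hnRNP and U2AF genes stayed below 0 but moved from -0.153 to -0.054, from -0.094 to -0.006 and from -0.170 to -0.092. They also turned Srsf3 to 0.008, Srsf2 to 0.097, Hnrnpll to 0.018 and Snrpc to 0.035, and rescaling turned Hnrnpll to 0.002. With a library left out, the ranges were -0.120 to 0.019 for the exon junction list, -0.153 to 0.007 for Srsf2, -0.050 to 0.124 for Srsf7, -0.048 to 0.291 for the second U2af1l4 row and -0.084 to 0.044 for Hnrnpll. The medians of snRNP, hnRNP and U2AF genes were also below 0 with each library left out, at -0.200 to -0.079, -0.127 to -0.052 and -0.205 to -0.108. Same-numbered libraries of the genotypes did not deviate together (correlations 0.146, -0.133 and -0.019), so the numbers were not taken as pairs.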

Other observations

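Ratios of levels between 7 pairs of members were computed within each library and were not tested. U2af1 exceeded U2af2 by 2.8 to 3.74 times over the 6 libraries, without a gap between genotypes. Sf3b2 exceeded Sf3b1 by 2.55 to 3.4 times, with knockout library 3 inside that range at 2.66. Snrpd1 exceeded Snrpd2 by 2.9 to 3.46 times in 5 libraries and by 2.67 times in knockout library 3. Snrpd1 exceeded Snrpd3, also of the Sm ring, by 3.02 to 3.29 times in 5 libraries and by 2.34 times in knockout library 3. Hnrnpa1 exceeded Hnrnpa2b1 by 2.23 to 2.53 times in those 5 libraries and by 1.67 times in knockout library 3. Hnrnpab exceeded Hnrnpk by 2.74 to 2.99 times in the 5 libraries and by 2.55 times in knockout library 3. Hnrnpab exceeded Hnrnpr by 47.0 to 61.5 times in the 5 libraries and by 19.3 times in knockout library 3.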
